A study of Mus musculus with 13 samples.

Results

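Monocytes of the spinal cord in experimental autoimmune encephalomyelitis (EAE), an immune-driven mouse model of demyelination, were taken as the cells that the deposited annotation calls Monocyte within its cluster 6. There were 1429 such cells among 22148 cells in all, and they were set against the 1749 cells that the annotation calls Macrophage in the same cluster. All cells came from mice of the fate-mapping line Cx3cr1YFPCreERT2:R26tdTomato, in which a tamoxifen-inducible Cre expressed from the Cx3cr1 locus switches on tdTomato, and were sorted as live CNS infiltrating or CNS resident myeloid cells before droplet RNA sequencing. The groups were chronic EAE infiltrating (3 libraries), peak EAE infiltrating (2 libraries), chronic EAE resident (3), peak EAE resident (2) and control resident (3). The results below rest on the 5 infiltrating libraries, which held 1407 of the monocytes, 233 in chronic and 1174 in peak EAE. Letters (a, b, c) tell libraries of 1 group apart and carry no order, because the cell table gives no replicate numbers. The age of the mice and the way EAE was induced are not given in the sources used here and the fate mark itself was not analysed here. The labels call the libraries biological replicates and do not tie them to single animals, so p-values measure the spread between libraries.

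Monocytes leave the bone marrow through the chemokine receptor Ccr2 and enter the inflamed central nervous system from the blood. Classical monocytes carry the surface protein Ly6C, and in tissue they lose it while they take on genes of macrophages, such as those of complement C1q, lysosomal cathepsins and lipid handling. In EAE these cells make up much of the infiltrate, present antigen to T cells and can damage myelin.

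Chronic infiltrating library b stood apart from its label. In the annotation 81.2% of its cells were microglia, against 1.80% in chronic a, 13.4% in chronic c and at most 0.924% in the peak libraries. The comparisons were therefore also run without it, and what changed is given with each. The cell table gives each library an identifier headed SLX, read here as a sequencing pool, a meaning that the header does not state. The 5 infiltrating libraries came from 4 such pools. No pool held infiltrating libraries of both stages, so that stage and pool cannot be told apart. Summed over monocytes, a library held 460353 to 11518598 UMIs (unique molecular identifiers, counted molecules). Of all cells, 0 were marked as doublets, and 7 of the monocytes carried a barcode that also occurred in another library.

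The label Monocyte in cluster 6 matched a division by Ccr2 counts. Every one of the 1429 monocytes had at least 2 Ccr2 UMIs, with a median of 6 and a highest count of 35, and every one of the 1749 macrophages had 0 or 1. Of 22598 features, 1 had counts that did not overlap between the classes, and it was Ccr2 (chromosome 9, 124101950 to 124113557, plus strand, GRCm38). Near the border lay 216 monocytes with exactly 2 Ccr2 UMIs and 358 macrophages with exactly 1. The level of Ccr2 therefore describes how the classes were drawn and is no result. The division did not extend to other clusters, since 46 of 125 cells called Monocyte in cluster 8 had 0 Ccr2 UMIs.

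Monocytes made up a smaller share of cluster 6 in chronic than in peak EAE. As a percent of monocytes plus macrophages, monocytes were 28.0% in chronic a (exact 95% interval 24.1 to 32.3%, 136 cells), 18.8% in chronic b (14.5 to 23.8%, 54 cells) and 18.0% in chronic c (13.3 to 23.5%, 43 cells). In peak a they were 59.4% (57.0 to 61.8%, 1002 cells) and in peak b 48.9% (43.5 to 54.2%, 172 cells). No chronic library reached either peak library. The mean was 21.6% ± 5.58 in chronic (SD, n = 3) and 54.1% ± 7.45 in peak EAE (SD, n = 2), a difference of -32.5 percentage points with an exact two-sided permutation p of 0.1, the smallest that 3 against 2 libraries allow. Without chronic b the difference was -31.1. With the classes taken over all clusters the shares were 31.0%, 22.5% and 30.2% in chronic a, b and c and 59.9% and 49.6% in peak a and b, a difference of -26.8 points, and chronic c moved most. The intervals cover counting error only, and the cells had passed a sorting gate before they were counted.

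Depth moved with the stage. The median monocyte held 8048, 8882 and 8349 UMIs in chronic a, b and c, against 11133 and 10650 UMIs in peak a and b (exact permutation p = 0.1). Without chronic b the difference in the median was -2693 UMIs. A class that needs 2 UMIs of a gene is reached less easily in shallower cells, so cells were also thinned to 3000 UMIs each, which left out 14 monocytes and 69 macrophages with fewer. At that equal depth, cells of cluster 6 with at least 1 Ccr2 UMI were 24.4%, 22.1% and 17.8% in chronic and 50.2% and 45.6% in peak libraries. Cells with at least 2 were 10.6%, 8.19% and 11.9% in chronic and 30.6% and 29.1% in peak libraries. In both counts the stages did not overlap, with or without chronic b (exact permutation p = 0.1 each with all 5 libraries).

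**Figure D1:**
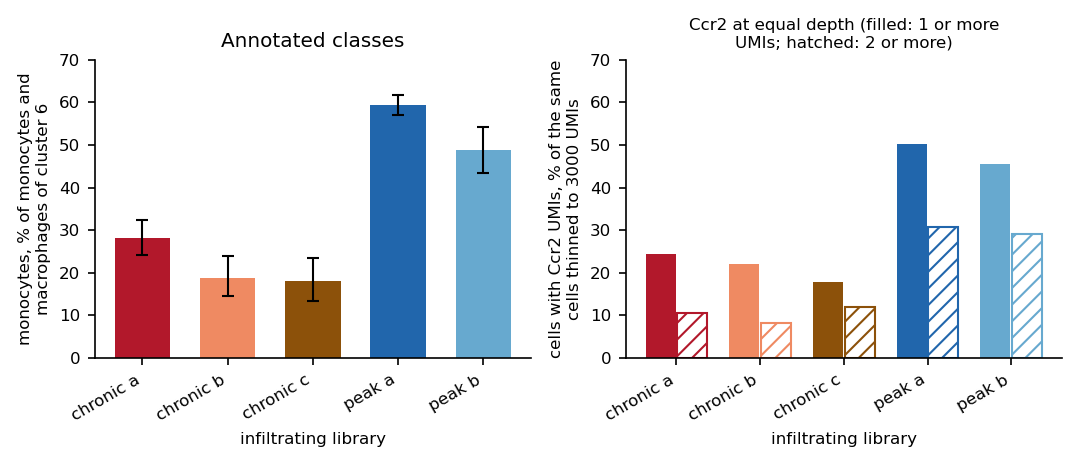
Left, monocytes as a percent of monocytes and macrophages of cluster 6 in each infiltrating library, with exact 95% binomial intervals as error bars. Right, percent of the cells of both classes holding 3000 UMIs or more that had at least 1 (filled) or at least 2 (hatched) Ccr2 UMIs after thinning to 3000 UMIs. Chronic libraries lie between 18.0 and 28.0% on the left and peak libraries at 48.9 and 59.4%.

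The first comparison asked how monocytes differed from macrophages of the same library. UMIs were summed per class and library, levels are given as CPM (UMIs of a gene relative to all UMIs of that class in that library, on the usual CPM scale), and differences are log2 fold changes ± SE from edgeR's quasi-likelihood fit with the library as a block. Since both classes were drawn from expression, single p-values are not given and calls at an adjusted p under 0.05 serve as a description. Of 9206 genes tested, 1520 were called (16.5%), 808 higher in monocytes (8.78%) and 712 lower (7.73%), with a median over all genes of 0.01. Without chronic b 1459 were called. Without peak a, which held most of the cells, 650 were called, of which 625 were among the 1520.

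Of the 4 markers other than Ccr2, Plac8 separated the classes most and Hp did not separate them. Plac8, a cysteine-rich protein of leukocytes (chromosome 5, 100553725 to 100572245, minus strand), was at 2378, 232 and 163 CPM in monocytes of chronic a, b and c and 3941 and 2784 CPM in those of peak a and b. In macrophages it was at 786, 41.8 and 11.2 CPM in chronic and 901 and 509 CPM in peak libraries. It was higher in monocytes of all 5 libraries (2.23 ± 0.18, and 2.19 without chronic b), while its level in either class of chronic b and c lay below that in macrophages of both peak libraries. At 3000 UMIs a cell, 75.0%, 18.9% and 7.50% of chronic a, b and c monocytes had a Plac8 UMI, and 92.4% and 69.0% in peak libraries. Of macrophages, 35.7%, 4.82% and 1.12% had one in chronic and 51.2% and 24.9% in peak libraries. In chronic c this was 3 of 40 monocytes. The 75 Plac8 UMIs of chronic c monocytes lay in cells with 6 or more Ccr2 UMIs.

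Chil3, a chitinase-like secreted lectin, was at 2654, 1587 and 89.1 CPM in monocytes of chronic a, b and c and 6011 and 2864 CPM in peak a and b. In macrophages it was at 1411, 979 and 8.58 CPM in chronic and 4384 and 1564 CPM in peak libraries. The difference was 0.86 ± 0.19 (0.91 without chronic b), higher in monocytes of 5 of 5 libraries, and it was called by edgeR but not by DESeq2 (1.13). The share of cells with a Chil3 UMI at equal depth differed little between classes, at 71.3%, 54.7% and 5.00% of monocytes in chronic and 87.0% and 66.1% in peak libraries, and 66.96%, 55.3% and 1.68% of macrophages in chronic and 84.8% and 67.1% in peak libraries. T cells, which should lack Chil3, gave 0%, 0% and 0% in chronic and 26.5% and 8.51% in peak libraries, with medians of 3400 to 7487 UMIs against 8048 to 11165 UMIs in the monocytes. Before thinning the monocyte shares were 78.7%, 60.4% and 10.0% in chronic and 94.0% and 75.4% in peak libraries. Before thinning the T cell shares in peak a and b were 48.5% and 19.1%. Chil3 UMIs were thus found in T cells of the peak libraries, and the part of free RNA in the Chil3 levels was not tested.

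Ly6c2, which encodes Ly6C, was at 596, 298 and 39.1 CPM in monocytes of chronic a, b and c and 950 and 1094 CPM in peak a and b. In macrophages it was at 325, 303 and 24.4 CPM in chronic and 732 and 673 CPM in peak libraries. The classes differed by 0.47 ± 0.12, with monocytes higher in 4 of 5 libraries, and by 0.60 without chronic b. It was no longer called without chronic a (0.36) or without peak b (0.42). Hp, the haemoglobin-binding protein haptoglobin, differed by -0.10 ± 0.26 and was not called. It was higher in monocytes of chronic a (551 against 241 CPM) and lower in those of chronic b (286 against 812 CPM) and chronic c (26.1 against 71.3 CPM). In peak a and b it was at 873 and 299.6 CPM in monocytes, against 839 and 258 CPM in macrophages. Without chronic b the difference turned to 0.27.

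In chronic c the cells labelled monocytes thus carried each of these 4 markers at its lowest level of the 5 libraries. With 43 monocytes and 460353 UMIs this was also the library with fewest. The markers were not confined to these cells in the infiltrating libraries, since Plac8 reached a median of 1867 CPM in dendritic cells and Ly6c2 a median of 192 CPM in T cells.

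**Figure D2:**
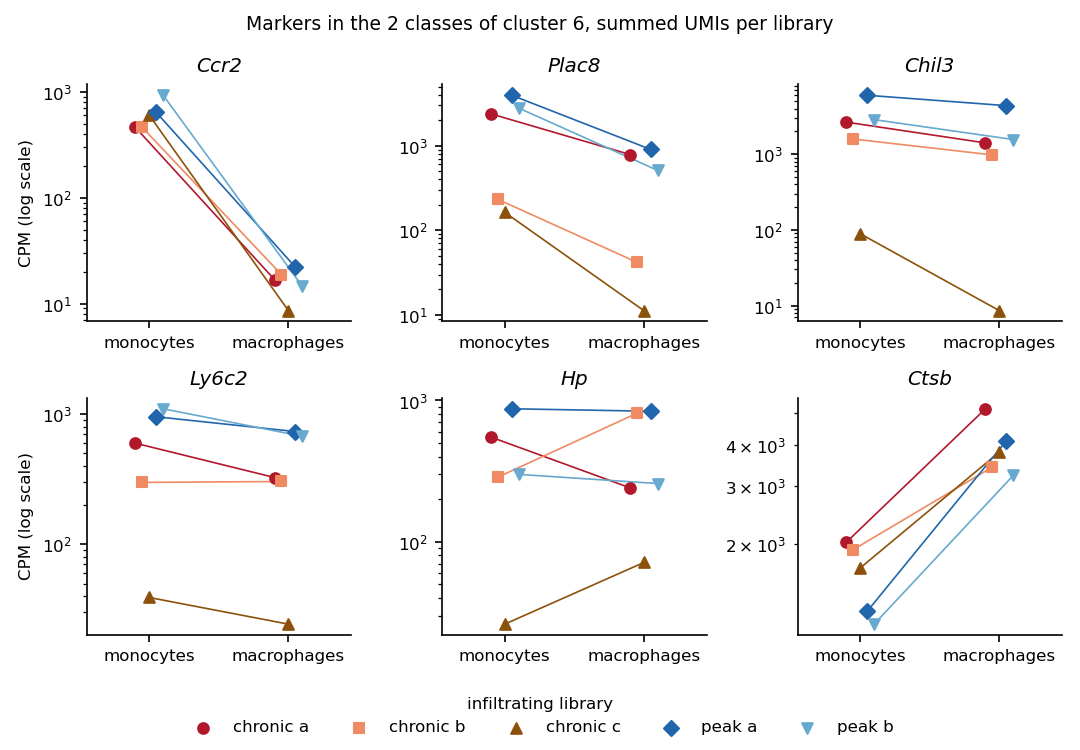
CPM (log scale) of the 5 monocyte markers and of Ctsb, a lysosomal protease gene, in monocytes and macrophages of cluster 6; each line joins the classes of 1 infiltrating library. Ccr2 and Plac8 lie higher in monocytes of all 5 libraries, Hp crosses, and chronic c lies lowest for Plac8, Chil3, Ly6c2 and Hp.

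The 10 genes higher in monocytes with the smallest p, among those with a log2 fold change of at least 1 and the same direction in every library, were led by Ifitm6, and Plac8, described above, was among them. Ifitm6, of the interferon-induced transmembrane family, was higher by 2.24 ± 0.14, at 133, 14.0 and 6.52 CPM in monocytes of chronic a, b and c and 103 and 51.4 CPM in peak a and b, against 26.6, 2.35 and 2.64 CPM in chronic and 24.1 and 5.91 CPM in peak macrophages. Rnase6, an antimicrobial ribonuclease, differed by 1.82 ± 0.12, at 39.5, 68.1 and 113 CPM in chronic and 146 and 83.9 CPM in peak monocytes, against 13.2, 21.5 and 44.9 CPM in chronic and 34.1 and 20.0 CPM in peak macrophages. Both were higher in monocytes than in macrophages of the same library in 5 of 5 libraries, while across libraries the classes overlapped: chronic c monocytes held less Ifitm6 than chronic a macrophages, and chronic a monocytes less Rnase6 than chronic c macrophages.

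The actin regulators Coro1a and Lsp1 were higher by 1.09 ± 0.11 and 1.30 ± 0.12. Klra2, a lectin-like receptor, was higher by 1.39 ± 0.10, at 112 to 294 CPM in monocytes and 36.0 to 121 CPM in macrophages. Ccnd3, a cyclin of the G1 phase, and Cdk2ap2, which binds a cyclin-dependent kinase, were higher by 1.29 ± 0.12 and 1.17 ± 0.09. Plbd1 and F11r, a junctional adhesion molecule, were higher by 1.11 ± 0.10 and 1.02 ± 0.10. By the choice of genes, all of these were higher in monocytes of 5 of 5 libraries.

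The 10 genes lower in monocytes, chosen in the same way, were led in size by Fabp4, a fatty acid carrier (-3.93 ± 0.30). It had 0, 6 and 6 UMIs (0, 12.01 and 13.03 CPM) in monocytes of chronic a, b and c and 3.56 and 0 CPM in peak a and b. In macrophages it was at 158, 167 and 77.2 CPM in chronic and 37.1 and 9.99 CPM in peak libraries. Spp1, which encodes the secreted osteopontin, was at 1968, 238 and 489 CPM in chronic and 218 and 478 CPM in peak monocytes, against 9618, 568 and 3192 CPM in chronic and 1019 and 1288 CPM in peak macrophages (-2.03 ± 0.15).

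The lysosomal proteases Ctsb and Ctsd differed by -1.34 ± 0.11 and -1.45 ± 0.13. Ctsb was at 2027, 1926 and 1694 CPM in chronic and 1252 and 1145 CPM in peak monocytes, against 5144, 3426 and 3803 CPM in chronic and 4113 and 3231 CPM in peak macrophages, so that the classes did not overlap. The cytokine receptor genes Il7r and Il11ra1 were lower by -2.21 ± 0.19 and -1.18 ± 0.11, and Acsl1, which activates fatty acids, by -1.24 ± 0.10. Syngr1, a vesicle membrane protein, and Tspan4, a tetraspanin, were lower by -2.08 ± 0.17 and -1.54 ± 0.14. Ccl7, a chemokine that binds Ccr2, was lower by -1.85 ± 0.16, although its level ranged from 0 CPM in chronic b monocytes to 313 CPM in those of chronic a, against 4.30 and 879 CPM in macrophages of these libraries. By the choice of genes, all of these were lower in monocytes of 5 of 5 libraries.

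**Figure D3:**
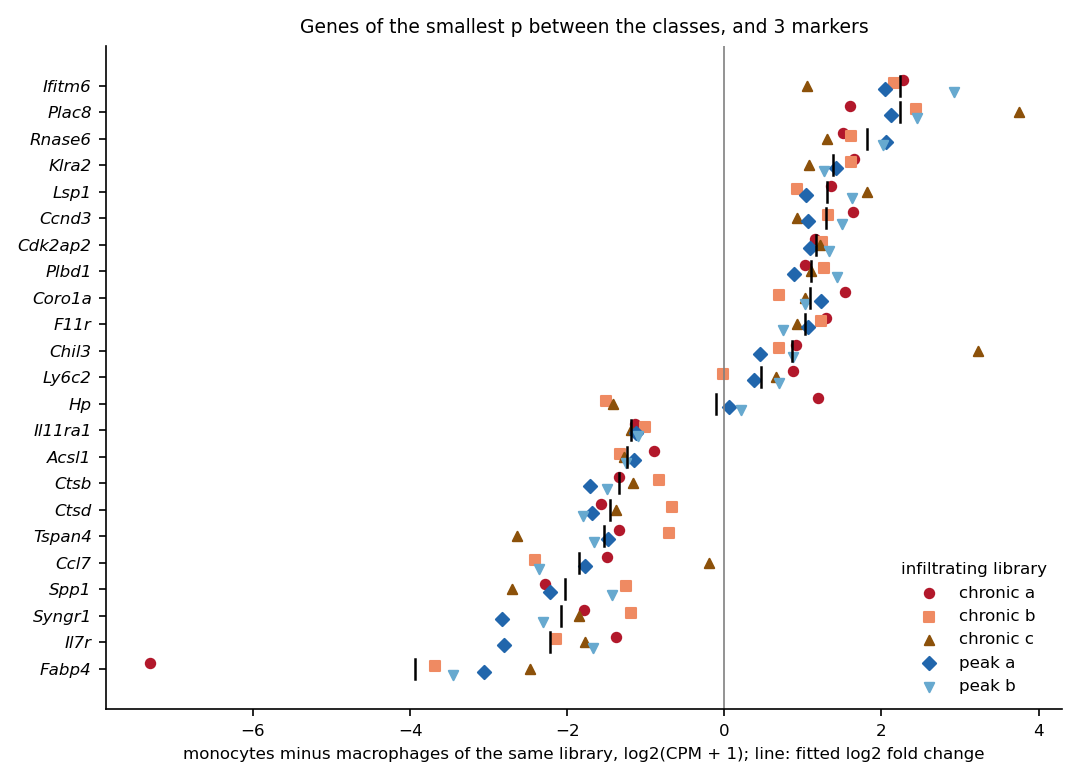
Difference of log2(CPM + 1) between monocytes and macrophages of the same library for the 10 genes higher and the 10 lower in monocytes with the smallest p, and for the markers Chil3, Ly6c2 and Hp; each point is 1 infiltrating library and the black line the fitted log2 fold change. All points of the 20 genes lie on 1 side of 0, which their choice required, and those of Hp, not chosen in this way, on both.

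Groups of genes were described by their calls. A member that is named because its list had few calls, or as a member of special interest (Cx3cr1), was named after its values were seen. Of 12 further genes of classical monocytes, 8 were higher in monocytes and 2 lower, with a median of 1.22, against 8.78% higher and 7.73% lower over all genes. Ms4a4c, a membrane protein, was higher by 1.30 ± 0.13 and Ifi27l2a, an interferon-induced gene, by 1.34 ± 0.15. Gpr141, a receptor without a known ligand, was higher by 1.15 ± 0.12 and Fn1, which encodes fibronectin, by 0.69 ± 0.12. The lectin receptor gene Clec4e and the clotting factor gene F13a1 were the 2 lower ones. Of 10 tested genes of patrolling monocytes, 1 was higher, the adhesion receptor gene Adgre4 (at most 9.67 CPM in monocytes and 7.27 CPM in macrophages), and 2 were lower, Fabp4 and Gngt2 (-0.44 ± 0.09). The share of patrolling genes that were higher lay near the 8.78% of all genes.

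Of 13 genes of trafficking receptors and integrins, 6 were higher and 1 lower (median 0.19), against 8.78% higher and 7.73% lower over all genes. The chemokine receptor gene Ccr1 was higher by 1.06 ± 0.18 and the selectin ligand gene Selplg by 0.77 ± 0.09, and Itga4, Itgal and Itgb7 were also called. Itgam and Itgb2, the chains of the complement receptor CD11b/CD18, differed by -0.18 ± 0.10 and 0.03 ± 0.13 and were not called. Cx3cr1, whose locus drives the Cre of this line, was at 21.8, 108 and 308 CPM in chronic and 36.6 and 157 CPM in peak monocytes, against 11.3, 90.3 and 457 CPM in chronic and 17.9 and 161 CPM in peak macrophages (0.19 ± 0.17, not called).

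Of 24 genes of macrophage maturation, 18 were lower in monocytes and 1, the tetraspanin gene Cd81, was higher (median -0.89). Over all genes 7.73% were lower and 8.78% higher. Apoe, a lipid carrier, was at 4726, 17404 and 21772 CPM in chronic and 9496 and 14476 CPM in peak monocytes, against 10152, 23845 and 76461 CPM in chronic and 16745 and 45262 CPM in peak macrophages (-1.19 ± 0.14). The complement genes C1qa and C1qb differed by -0.89 ± 0.12 and -0.79 ± 0.11, and the lectin gene Lgals3 by -0.39 ± 0.11. Apoe, C1qa and C1qb were lower in monocytes of 5 of 5 libraries and Lgals3 in 4, and the lowest level of any of these 4 genes in monocytes was 945 CPM, for C1qa in chronic a.

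Of 10 MHC class II genes, 4 were higher in monocytes and 0 lower (median 0.31): H2-DMa, H2-DMb1 and H2-DMb2, which load peptides, and Ciita, the activator of these genes. The peptide-presenting chains H2-Aa, H2-Ab1 and H2-Eb1 and the invariant chain Cd74 differed by 0.17 ± 0.15, 0.10 ± 0.16, 0.21 ± 0.16 and 0.19 ± 0.15 and were not called. Of 12 MHC class I and peptide loading genes, 2 were higher and 3 lower (median -0.03). Among them were the immunoproteasome gene Psmb8 (0.28 ± 0.09) and the heavy chains H2-K1 and H2-D1 (-0.32 ± 0.09 and -0.35 ± 0.08). Over all genes 8.78% were higher and 7.73% lower.

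Of 23 interferon response genes, 16 were higher in monocytes and 1 lower (median 0.50), against 8.78% higher and 7.73% lower over all genes. Ifitm3, which blocks virus entry, was higher by 0.93 ± 0.08, at 4701, 1343 and 1297 CPM in chronic and 5125 and 2426 CPM in peak monocytes, against 2496, 760.1 and 661 CPM in chronic and 2508 and 1177 CPM in peak macrophages. Isg15, a ubiquitin-like modifier, was higher by 0.73 ± 0.12. Bst2, which tethers budding virus, was the 1 lower (-0.43 ± 0.12). Summed over the list, monocytes held 14754, 3475 and 3017 CPM in chronic and 11790 and 8088 CPM in peak libraries, and macrophages 8460.2, 2679 and 2903 CPM in chronic and 7080 and 6453 CPM in peak libraries. The sums were higher in monocytes of 5 of 5 libraries and differed least in chronic c.

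Of 25 cytokine, chemokine and regulator genes, 9 were lower in monocytes and 3 higher (median -0.37), against 7.73% lower and 8.78% higher over all genes. The lower ones were Ccl2, Ccl3, Ccl4, Ccl7, Tnf, Il1a, Nos2, Ptges and Vegfa. The 3 higher ones were the cytokine genes Il1b and Il18 and Nlrp3, a sensor of the inflammasome that processes both cytokines, with 1.01 ± 0.21, 0.73 ± 0.14 and 0.58 ± 0.12. Il1b was at 399.9, 56.1 and 17.4 CPM in chronic and 525 and 819 CPM in peak monocytes, against 185, 13.7 and 60.7 CPM in chronic and 205 and 376 CPM in peak macrophages, so chronic c ran the other way. The 4 members with the highest mean level in monocytes, Ccl5, Cxcl10, Cxcl9 and Cxcl16, were not called (-0.39 ± 0.17, 0.41 ± 0.15, 0.38 ± 0.20 and -0.29 ± 0.10).

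Of 6 NADPH oxidase subunits, which make superoxide, 3 were higher, among them the cytosolic Ncf4 and Rac2 (0.50 ± 0.09 and 0.52 ± 0.09), and the membrane subunit Cyba was lower (-0.36 ± 0.09). The catalytic subunit Cybb was not called (-0.13 ± 0.09). Of 36 nuclear-encoded subunits of respiratory complex I, 2 were higher and 0 lower (median 0.03), Ndufs8 by 0.43 ± 0.09 and Ndufb10 by 0.27 ± 0.08. Of 18 glycolysis and hypoxia genes, 1 was higher and 1 lower (median 0.02), Gpi1 by 0.29 ± 0.09 and Pfkl by -0.34 ± 0.11. For complex I and glycolysis the share of members called lay below the 16.5% of all genes (8.78% higher and 7.73% lower).

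Of 20 myeloid transcription factor genes, 5 were higher, Cebpd, Klf2, Klf4, Irf5 and Bach1, and 3 lower, the nuclear receptors Nr1h3 and Pparg and Cebpa (median 0.11). Spi1, which encodes PU.1, was not called (0.24 ± 0.09). Of 11 tested proliferation genes, Hmgb2 was higher (0.60 ± 0.09) and Mki67, a mark of cycling cells, lower (-1.34 ± 0.19) on 2.17 to 10.7 CPM in monocytes and 7.92 to 34.1 CPM in macrophages. As a list, proliferation genes were thus called near the shares of all genes, 8.78% higher and 7.73% lower. Of 2 tested genes of marrow progenitors and granules both were higher, Prtn3 by 1.77 ± 0.19 and Cd177 by 1.43 ± 0.27, the second with 0 UMIs in monocytes of chronic b and c. The granule protease Prtn3 was at 29.8, 16.01 and 2.17 CPM in chronic and 181 and 15.3 CPM in peak monocytes, against 14.5, 4.30 and 0.660 CPM in chronic and 39.9 and 8.63 CPM in peak macrophages.

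Genes of other cell types did not all lie on 1 side. Of 7 tested microglia markers, 2 were lower in monocytes, Fcrls and Olfml3, and 1 higher, P2ry12 (0.87 ± 0.22), with sums of 78.8 to 264 CPM in monocytes and 112 to 735 CPM in macrophages. Of 3 tested border-associated macrophage markers all 3 were lower, among them Pf4 (-2.87 ± 0.32), and the list summed to 113 to 334 CPM in monocytes and 181 to 500.2 CPM in macrophages. Of 4 tested neutrophil markers 2 were lower, S100a8 and S100a9, with sums of 52.1 to 328 CPM in monocytes and 62.0 to 431 CPM in macrophages. Ly6g was at 0 UMIs in both classes and also in cluster 8 monocytes, dendritic cells, T cells and microglia, so it does not tell the classes apart. Of 3 tested dendritic cell markers Dpp4 was higher (2.06 ± 0.58), with the list at 27.5 to 86.1 CPM in monocytes and 15.6 to 38.3 CPM in macrophages. The list of astrocytes had 1 of 3 lower, natural killer cells 1 of 1 lower, and T cells, B cells, oligodendrocytes and endothelium 0 of 2, 0 of 1, 0 of 3 and 0 of 2 called, with no erythrocyte gene tested. Genes induced by dissociation were higher for 4 of 16 and lower for 1 (median 0.38), against 8.78% higher and 7.73% lower over all genes. Their part in the differences above was not tested.

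Without chronic b, 65 of the 69 named genes called between the classes kept their call, and Ndufb10, Gpi1, Pfkl and Jun lost it. Another 4 named genes gained a call, Cxcl9, Spi1 and Junb as higher in monocytes and Tmem119 as lower. Of 118 named genes 2 changed sign, Hp and Csf3r. Macrophage maturation genes were then lower for 21 of 24 (median -1.04) and further classical genes higher for 9 of 12 (median 1.30). Interferon response genes were higher for 17 of 23 (median 0.52), and MHC class II genes for 4 of 10 (median 0.34). Of 25 cytokine and chemokine genes 5 were higher and 9 lower, and microglia markers higher for 1 of 6 and lower for 4. With all libraries 8.78% of genes were higher and 7.73% lower, and the shares over all genes without chronic b are not given here.

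Levels were also set against the number of Ccr2 UMIs in a cell. In peak a, the library with most cells, Plac8 was at 633 CPM in the 498 cells with 0 Ccr2 UMIs, 1766 CPM in 187 cells with 1, 3109 CPM in 137 cells with 2, 3326 CPM in 320 cells with 3 to 5 and 4468 CPM in 545 cells with 6 or more. Cd63, a tetraspanin of lysosomes and exosomes, was at 593, 301, 93.3, 71.0 and 45.0 CPM over the same steps, and Apoe at 17526, 14230, 11221, 10079 and 8776 CPM. In peak a, macrophages with 1 Ccr2 UMI thus lay between macrophages with none and monocytes with 2 for these 3 genes, and the levels went on in the same direction among monocytes. Hp showed no such order in peak a, at 851, 798, 883, 804 and 909 CPM. In peak b Plac8 was at 339, 1321, 1048, 2969 and 2985 CPM and Cd63 at 354, 199, 309, 116 and 42.0 CPM, and in chronic a Plac8 was at 541, 2206, 2227, 2156 and 2982 CPM, so the order was interrupted at the middle steps. In chronic b and c the steps from 2 UMIs on hold 8 to 32 cells each and are uneven. This is a description over cells of shared libraries, and a cell with more UMIs in all has more chance of a further Ccr2 UMI. The median cell of peak a held 12553, 10700, 11119, 10832.5 and 11323 UMIs over the same steps. In chronic c it held 6272 UMIs at 0 Ccr2 UMIs and 11925 UMIs at 6 or more. The part of depth in these orders was not tested.

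**Figure D4:**
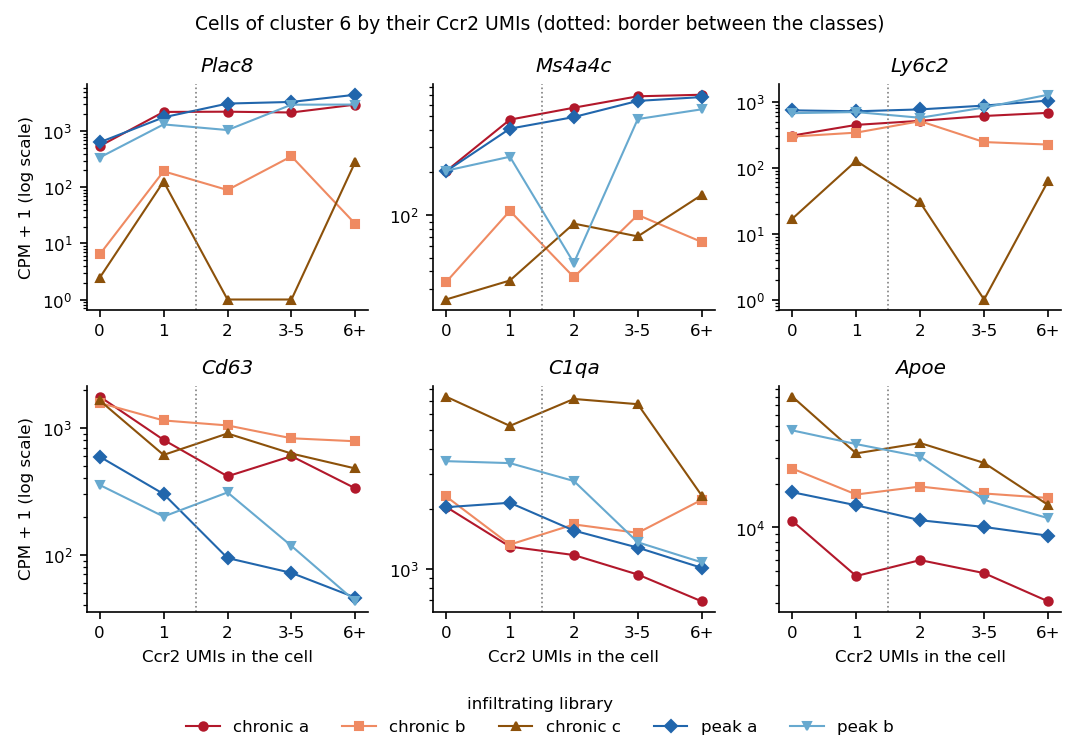
CPM + 1 (log scale) of 6 genes in cells of cluster 6 grouped by their number of Ccr2 UMIs, 1 line per infiltrating library; the dotted line marks the border between macrophages (left) and monocytes (right). In peak a, Plac8 runs up from 633 to 4468 CPM and Cd63 down from 593 to 45.0 CPM over the 5 steps.

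The second comparison set monocytes of chronic EAE against monocytes of peak EAE, to ask whether cells under the same label differed with disease stage. Of 7699 genes tested, 5 were called (0.0649%), 3 higher (0.0390%) and 2 lower (0.0260%) in chronic EAE, and 669 had an unadjusted p under 0.05. The called genes were Bhlhe41, Fcrls and Cd63, which rose, and Jaml and Fpr2, which fell. The fit held a biological coefficient of variation of 32.8%, and the median over all genes was -0.03 with TMM scaling and -0.15 with library size only.

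Bhlhe41, a transcriptional repressor of resident macrophages (chromosome 6, 145858243 to 145865558, minus strand), had 60, 66 and 54 UMIs in monocytes of chronic a, b and c and 17 and 7 UMIs in those of peak a and b. That is 48.4, 132 and 117 CPM in chronic against 1.48 and 3.56 CPM in peak libraries, a log2 fold change of 5.66 ± 0.63 (adjusted p = 0.00755). The lowest chronic library lay far above the highest peak library. Fcrls, a scavenger receptor-like gene used as a microglial marker, was at 29.0, 34.0 and 36.9 CPM in chronic and 1.91 and 3.05 CPM in peak monocytes (3.95 ± 0.50, adjusted p = 0.0136), on 17 to 36 and 6 to 22 UMIs a library. Cd63 was at 481, 869 and 584 CPM in chronic and 59.3 and 86.5 CPM in peak monocytes (3.30 ± 0.45, adjusted p = 0.0223). Neither gene's stages overlapped.

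Jaml, an adhesion molecule of migrating leukocytes, was at 17.7, 12.01 and 4.34 CPM in chronic and 99.0 and 89.0 CPM in peak monocytes (-2.81 ± 0.43, adjusted p = 0.0393). Fpr2, a receptor for formyl peptides that guides neutrophils and monocytes, was at 11.3, 10.0 and 10.9 CPM in chronic and 69.8 and 65.6 CPM in peak monocytes (-2.53 ± 0.38, adjusted p = 0.0393). The chronic values of these genes rest on 2 to 22 and 5 to 14 UMIs a library.

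The same 5 genes lay on the same side in macrophages of cluster 6. Bhlhe41 was at 163, 230.3 and 159 CPM in chronic and 20.7 and 30.9 CPM in peak macrophages, and Fcrls at 90.6, 39.9 and 335 CPM in chronic and 10.3 and 21.8 CPM in peak macrophages. Cd63 was at 1624, 1492 and 1565 CPM in chronic and 524 and 328 CPM in peak macrophages. Jaml was at 11.8, 4.30 and 1.32 CPM in chronic and 35.5 and 35.9 CPM in peak macrophages, and Fpr2 at 9.48, 8.60 and 0.660 CPM in chronic and 53.8 and 34.5 CPM in peak macrophages. Monocytes were lower than macrophages for Bhlhe41, Fcrls and Cd63 and higher for Jaml and Fpr2 in each of the 5 libraries.

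**Figure D5:**
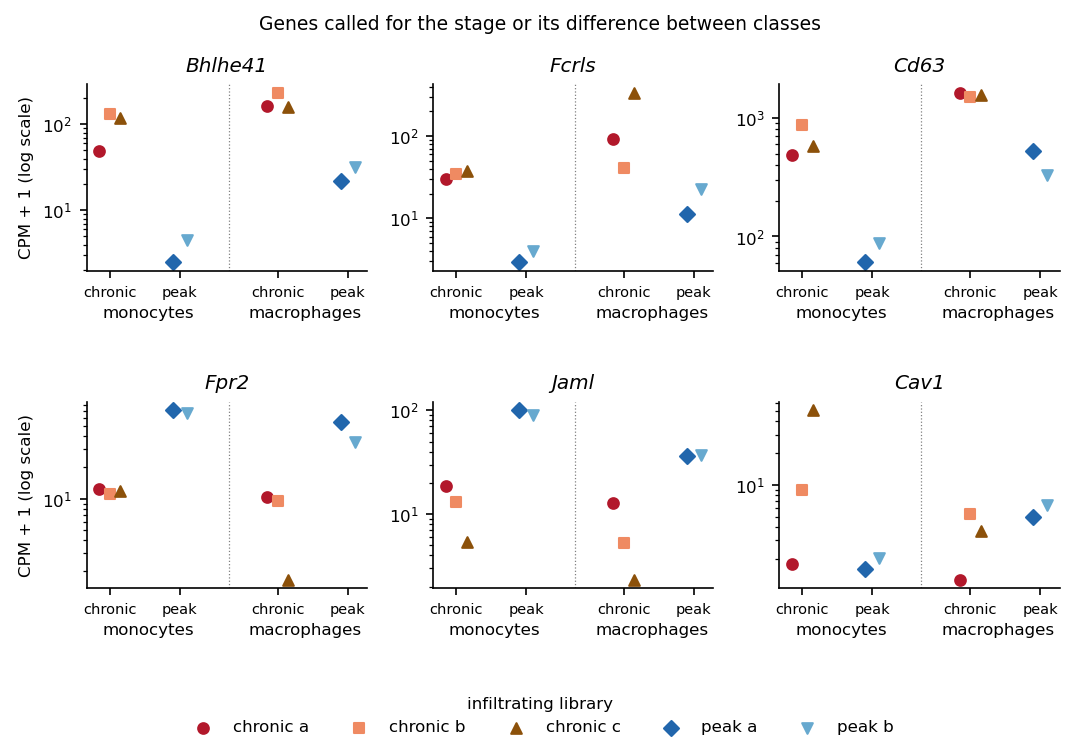
CPM + 1 (log scale) in monocytes (left of the dotted line) and macrophages (right), chronic before peak, for the 5 genes called between stages in monocytes and for Cav1; each point is 1 infiltrating library. Bhlhe41, Fcrls and Cd63 lie higher and Jaml and Fpr2 lower in all 3 chronic libraries than in both peak libraries, and Cav1 stands out in chronic c monocytes.

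Microglia made up more of each chronic than of each peak library. Bhlhe41 and Fcrls are genes that microglia express, and the 9 microglia markers as a list summed to 117, 264 and 185 CPM in chronic and 89.6 and 78.8 CPM in peak monocytes. Of 6 tested microglia markers 1 was called, Fcrls, and 5 were positive (median 1.29). P2ry12, a defining marker, was at 25.8, 22.0 and 15.2 CPM in chronic and 25.7 and 12.7 CPM in peak monocytes (0.21 ± 0.45), and Tmem119 at 13.7, 28.0 and 26.1 CPM in chronic and 11.1 and 8.65 CPM in peak monocytes (1.21 ± 0.49). Without chronic b, Bhlhe41, Fcrls and Cd63 kept their calls (adjusted p = 0.00486, 0.0345 and 0.0396), and Jaml and Fpr2 lost them (adjusted p = 0.107 and 0.152). At equal depth (3000 UMIs a cell) Fcrls was no longer called (3.06, adjusted p = 0.297), and it was not called either when monocytes with 2 Ccr2 UMIs were left out (3.63, adjusted p = 0.177). The part of microglial RNA in these differences was not tested.

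The markers of classical monocytes were not called between stages, and chronic libraries differed among themselves. With no filter on low counts, Ly6c2 and Plac8 were called (-1.64 and -1.83, adjusted p = 0.0218 and 0.0130). Their log2 fold changes were -1.61 ± 0.68 for Ly6c2, -1.56 ± 0.85 for Chil3, -1.80 ± 0.84 for Plac8 and -0.97 ± 0.78 for Hp (adjusted p = 0.533, 0.599, 0.568 and 0.748). The level of Ccr2 is not compared, because every monocyte was chosen by it. For Ly6c2, Chil3 and Plac8 each chronic library lay below both peak libraries, with 596 to 39.1 CPM among the chronic ones for Ly6c2. For Hp chronic a, at 551 CPM, lay above peak b at 299.6 CPM.

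Outside the microglia markers, 1 list had a call between the stages, that of macrophage maturation. All 12 further genes of classical monocytes had negative values (median -1.05, 0 called), among them Gpr141 (-1.91 ± 0.37, adjusted p = 0.131) and Fn1 (-1.19 ± 0.41, adjusted p = 0.467). Of 24 genes of macrophage maturation 21 were positive (median 0.96) and 1 was called, Cd63. Apoe had 0.47 ± 0.62 (adjusted p = 0.862) and C1qa 1.07 ± 0.60 (adjusted p = 0.607). Of 36 complex I subunits 30 were positive (median 0.36, 0 called), with Ndufa3 at 1.42 ± 0.50 (adjusted p = 0.477). Of 9 tested MHC class II genes 6 were positive (median 0.66, 0 called). Cd74 reached 22866, 66094 and 35366 CPM in chronic against 16337 and 11367 CPM in peak monocytes (1.71 ± 0.59, adjusted p = 0.467), without overlap. For H2-Aa and H2-Ab1 of the same list the stages overlapped, with chronic a below both peak libraries and chronic c above them. Of 23 interferon response genes 10 were positive (median -0.54, 0 called). Isg15, at 2600.2, 146 and 137 CPM in chronic and 609 and 289 CPM in peak monocytes, set chronic a apart from chronic b and c of the same stage. These values are relative to a median over all genes of -0.03, and a p above the threshold does not show that the stages were alike.

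The remaining lists had 0 calls and medians of -0.19 for 23 cytokine and chemokine genes, -0.58 for 12 MHC class I genes, -0.67 for 13 trafficking genes, -0.29 for 6 NADPH oxidase subunits, -0.47 for 18 glycolysis and hypoxia genes and -0.34 for 19 transcription factors. Dissociation-induced genes had a median of -0.56 over 13 genes and proliferation genes 0.30 over 8. Dendritic cell markers summed to 68.5, 86.1 and 63.0 CPM in chronic and 27.5 and 43.7 CPM in peak monocytes, with Clec10a at 1.60 ± 0.58 (adjusted p = 0.497). The median mitochondrial share per monocyte was 1.04%, 1.30% and 1.69% in chronic and 1.66% and 2.58% in peak libraries. The part of these in the stage differences was not tested.

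Without chronic b, the medians between stages were -0.76 for the 12 further classical genes, 0.85 for macrophage maturation genes (20 of 24 positive), 0.39 for MHC class II genes, -0.27 for interferon response genes and 0.73 for microglia markers (4 of 5 positive). The median of the cytokine and chemokine genes was then 0.01 and 1 of them was called, the chemokine gene Ccl4. That of complex I subunits was 0.28, with 29 of 36 positive.

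The number of genes called depended on single libraries. Without chronic b 6 were called, 3 of them among the 5. Without peak a 0 genes were called, with adjusted p = 0.230 for Bhlhe41, Fcrls, Jaml and Fpr2 and 0.268 for Cd63 at log2 fold changes of 4.95, 3.59, -2.63, -2.39 and 3.11, and peak b was then assumed to vary like the chronic libraries. Without peak b, Bhlhe41 and Fcrls kept their calls (adjusted p = 0.0259 and 0.0300) and Cd63, Fpr2 and Jaml lost them (adjusted p = 0.122, 0.0566 and 0.0567). Without chronic a 112 were called, among them the 5 above and Plac8 (-3.93, adjusted p = 0.00119), and without chronic c 15, again with all 5.

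The third comparison tested whether the stage difference itself differed between monocytes and macrophages. Of 9206 genes 2 were called (0.0217%), Bhlhe41 and Cav1, both with a more positive stage difference in monocytes, and 302 had an unadjusted p under 0.05. For Bhlhe41 the stage difference was larger in monocytes by 2.57 ± 0.42 (adjusted p = 0.0273). It was 2.44 without chronic b (adjusted p = 0.0725), 2.28 without chronic c (adjusted p = 0.0855) and 2.11 without peak a (adjusted p = 0.456), so leaving out any of these libraries ended the call. Cav1, the coat protein of caveolae, lay below the level set for naming genes and was named after its values were seen. It had 1, 4 and 23 UMIs (0.806, 8.01 and 50.0 CPM) in chronic a, b and c monocytes and 7 and 2 UMIs in those of peak a and b, against 1, 11 and 4 UMIs in chronic and 34 and 12 UMIs in peak macrophages. Its difference was 5.31 ± 0.88 (adjusted p = 0.0273), and without chronic c, which held most of its chronic monocyte UMIs, it was 3.57 (adjusted p = 0.986). Without peak a it was 5.00 (adjusted p = 0.320), and without chronic b 6.58 (adjusted p = 0.00130).

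For the MHC class II chains the stages had the opposite order of the classes, without a call. H2-Aa was at 3710.4, 11220.1 and 8643 CPM in chronic monocytes, against 3091, 8739 and 4471 CPM in chronic macrophages, higher in monocytes of each library. In peak a and b it was at 4019.8 and 3927 CPM in monocytes, against 4853 and 4934 CPM in macrophages, lower in both. The same order held for H2-Ab1, H2-Eb1 and Cd74, with differences of the stage effect of 0.86 ± 0.21, 0.85 ± 0.25, 0.96 ± 0.23 and 0.78 ± 0.23 for H2-Aa, H2-Ab1, H2-Eb1 and Cd74 (adjusted p = 0.353, 0.739, 0.271 and 0.730). Without chronic b these were 0.94, 1.01, 1.14 and 0.92 (adjusted p = 0.558, 0.681, 0.208 and 0.744).

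Few monocytes were found in the resident gate. Of the 1429, 13 came from chronic EAE resident libraries (of 8771 cells), 6 from peak EAE resident libraries (of 1267 cells) and 3 from control resident libraries (of 6205 cells), with at most 7 in 1 library. These numbers were too small for sums per library, so no comparison between the gates was made.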

How the data were processed

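Droplet RNA libraries of sorted spinal cord myeloid cells were used as UMI counts per gene and cell, deposited by the authors and made with Cell Ranger 3.1.0 and R 4.1.3 on GRCm38/mm10, per the submitters' processing notes. The deposited cell table gave library, gate, stage, class, cluster and doublet mark, and an identifier headed SLX that was read as the pool. Per the file headers it also gave the mitochondrial percent and the log10 of total UMIs of each cell as the authors computed them. Its cells reach at most 5% mitochondrial UMIs, and 0 of the 22598 features are mitochondrially encoded. Gate and stage in the cell table gave each library its group, and which sample of the group it is was not given. A second deposited copy of the counts was not used here.

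Members and gene lists were chosen with earlier results of these data known. Counts were summed per library and class (at least 20 cells, 460353 UMIs or more) and tested with edgeR 4.0.16 in R 4.3.3 (TMM scaling, filterByExpr, quasi-likelihood test, Benjamini-Hochberg adjusted p under 0.05): classes with the library as a block, stages without one, and their interaction. SE is the absolute log2 fold change divided by the root of F. DESeq2 1.42.0 was an alternative. Named were, in each direction, up to 10 called genes in order of p whose fold change reached 1 and whose mean level reached 5 (both on the log2 scale, the level in CPM), with 1 direction in every library (for the stages, no overlap), the 5 markers, and up to 4 members a list with the highest level or a call. Cav1, Fcrls and the other called genes outside this rule were named after their values were seen. Shares and medians were compared by exact permutation in Python 3.11.15. On simulated counts the fits recovered 96.9% of changes of 2 and 25.5% of changes of 1 on the log2 scale between the classes, 73.9% and 10.6% between the stages, and 19.6% and 0% for the interaction. The simulation used a single dispersion for every comparison, close to that of the stage fit (biological coefficient of variation 32.8%). The fitted values were 10.1% for the classes and 10.7% for the interaction, so their recovery was simulated at a wider spread than that of the data. Positions are those of GRCm38. Intervals cover counting error only. Some list members are not reported here.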

Additional observations from a re-analysis of the deposited data

Results flagged for a closer look

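For 2 genes the difference between chronic and peak EAE was itself different in monocytes and macrophages of cluster 6 (edgeR's quasi-likelihood test of the interaction). Bhlhe41 had a stage difference larger by 2.57 ± 0.42 on the log2 scale in monocytes (adjusted p = 0.0273), with monocytes below macrophages in each of the 5 libraries. Over 14 alternatives its value lay between 2.11 and 2.98, and it kept its call in 7 of them (adjusted p up to 0.456). Cav1 had a stage difference larger by 5.31 ± 0.88 in monocytes (adjusted p = 0.0273), on 1, 4 and 23 UMIs in chronic and 7 and 2 UMIs in peak monocytes, against 1, 11 and 4 UMIs in chronic and 34 and 12 UMIs in peak macrophages. Without chronic c it was 3.57 (adjusted p = 0.986).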

How the results depend on the processing

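Between the classes, 1520 genes were called, 893 by DESeq2, 888 with each cell thinned to 3000 UMIs, and 650 to 1719 with 1 library left out, the fewest without peak a; the fit with no replicate block called 8. Hp changed sign, with values of 0.27 without chronic b, 0.0086 without chronic c and likewise with at least 50 cells a column (which drops the same library), 0.43 with classes over all clusters and 0.0016 thinned (-0.49 to 0.27 over the left-out libraries). Between the stages, 5 genes were called, 151 with no filter on low counts, 40 by DESeq2, 8 with classes over all clusters, 15 with at least 50 cells a column, 3 with cells of 2 Ccr2 UMIs left out (chosen after seeing the data) and 0 to 112 with 1 library left out; Hp then ranged from -1.79 to 0.12, the positive value without peak a. For the interaction, 2 were called, 28 with no filter, 1 by DESeq2, 9 with equal numbers of cells, 0 with classes over all clusters, with at least 50 cells, thinned or with cells of 1 or 2 Ccr2 UMIs left out (chosen after seeing the data), and 0 to 9 with 1 library left out. The cause of these changes was not tested. Of the single-gene values under the alternatives, 332 kept direction and side of the threshold between the classes, 109 between the stages and 14 for the interaction, while 23, 17 and 13 fell short of it. Shares and median UMIs kept their direction. Monocytes and macrophages were paired by library, while chronic and peak libraries were not paired, as the labels give no pairing between them. The alternatives for monocytes of the resident against the infiltrating gate were not run, as no resident library held more than 7 monocytes. Chronic b and c, with 54 and 43 monocytes, limit the precision of the stage comparison.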

Other observations

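The annotation also called 143 cells Monocyte outside cluster 6, of which 125 were in cluster 8, 16 in cluster 4 and 2 in cluster 3. The monocytes of cluster 8, in 4 libraries, held Hp at 737 to 1999 CPM (median 1443), against 26.1 to 873 CPM (median 299.6) in monocytes of cluster 6. They held C1qa at 0 to 127 CPM (median 21.5), against 945 to 4288 CPM (median 1318) in monocytes of cluster 6. Plac8 was at 2279 to 4534 CPM in cluster 8 and 163 to 3941 CPM in cluster 6. Chil3 was at 233 to 9585 CPM in cluster 8 and 89.1 to 6011 CPM in cluster 6. Ly6c2 was at 90.7 to 891 CPM in cluster 8 and 39.1 to 1094 CPM in cluster 6. The clusters were drawn from expression, so these levels are a description.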
